A study of Mus musculus with 2 samples.

Results

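The transcripts of 10 immediate early transcription factors were followed in mouse blood: the Fos proteins Fos, Fosb, Fosl1 and Fosl2, the Jun proteins Jun, Junb and Jund, the related factor Atf3, and the zinc finger factors Egr1 and Egr2. They were taken by name, as every probe outside the controls whose gene name in the array files was 1 of these symbols, which gave 15 of 56605 probes and 10 of 37074 gene names. RNA from blood was hybridised in 1 colour to a pair of Agilent arrays, one per group: heat and control. The heat group had a warming step of 1 h at 37 °C, in water, followed by 38.5 °C for 1 h. The labels give the control group no temperature or duration, so the effect of heat and that of the warming step or of handling cannot be told apart. Strain, age and sex were not given in the sources used here, nor whether live animals or collected blood were warmed. Although the protocols mention 3 replicates per line, a single array per group was analysed. No difference therefore has a replicate check or a p-value, and the number of arrays limits the precision.

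Immediate early genes are switched on within minutes of a stimulus, without new protein synthesis, through kinases of the MAP kinase family that act on factors already bound to DNA. Fos and Jun proteins pair through leucine zippers to form AP-1; Jun proteins can also pair with each other, whereas Fos proteins need a partner such as Jun. EGR proteins bind GC-rich sites through zinc fingers. In monocytes and macrophages these factors are known for the response to growth factors, adhesion and microbial products.

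Each value below is the processed signal of a probe, in scanner units after the software's background correction, and a difference is heat minus control on the log2 scale after each array was set to its own 75th percentile (604 for heat and 620 for control). The flag "well above background" is the software's own, and the dimmest probes that carried it had a signal of 24.9 with heat and 31.0 in control. Signals of different probes depend on the probe, so they were not ordered against each other. Of the marker genes checked, all 10 for monocytes and macrophages were detected on both arrays, with differences between -0.13 and 0.17. Of 7 B cell markers 2 were detected, Cd79b with a difference of 0.33 and Cd22 with 0.03, and Cd79a and Ms4a1 were among those that were not. Of the 6 erythroid markers on the array 1 was, Hba-a1, and Hbb-b1 and Alas2 were not well above background, after lysis of red cells and globin depletion per the labels' protocols. Neutrophil markers were detected in 6 of 9 cases, with differences from -0.37 (Camp) to 0.25 (Mmp8). T cell markers were detected in 6 of 8 cases, with differences from -0.12 (Cd3e) to 0.35 (Cd28), while Cd3g and Cd8a were not detected. Cd28 and Il7r read above the 75th percentile on both arrays, and Cd3d, Cd3e, Cd4 and Lck below it. Cd3d was dim, at a log2 level of -3.35 with heat and -3.64 in control relative to that percentile. Lck lay at -2.87 and -3.01. Of the NK cell markers 2 of 6 were measured, Klrb1c with a difference of -0.01 and Prf1 with -1.68. The Prf1 value rests on 1 probe that was dim with heat. Its log2 level relative to the 75th percentile was -3.72 with heat and -2.03 in control. Klrb1c was dim on both arrays, at -4.04 and -4.03. Of the platelet markers 2 of 6 were measured, Pf4 with a difference of 0.26 and Treml1 with 0.40. Several of these differences were as large as those of most members, and the markers' part in the members' differences was not tested. In bulk blood, fewer cells of a type and less RNA per cell cannot be told apart.

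All 10 factors were detected on both arrays, and none was 2-fold apart. Fosl1 was the member with the widest gap, 1.56-fold lower on the heat array, and the others lay within a log2 difference of 0.31 of 0. Fos, Fosl1, Fosl2, Jun and Junb were lower and Fosb, Jund, Atf3, Egr1 and Egr2 were higher, so 5 members lay on each side. Their median difference was -0.04, beside 0.01 over all 18562 genes measured. Of those genes, 39 were at least 2-fold higher (0.21%) and 84 at least 2-fold lower (0.453%), together 0.663%. At that rate 0 of 10 members cannot be told apart from the background.

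**Figure D1:**
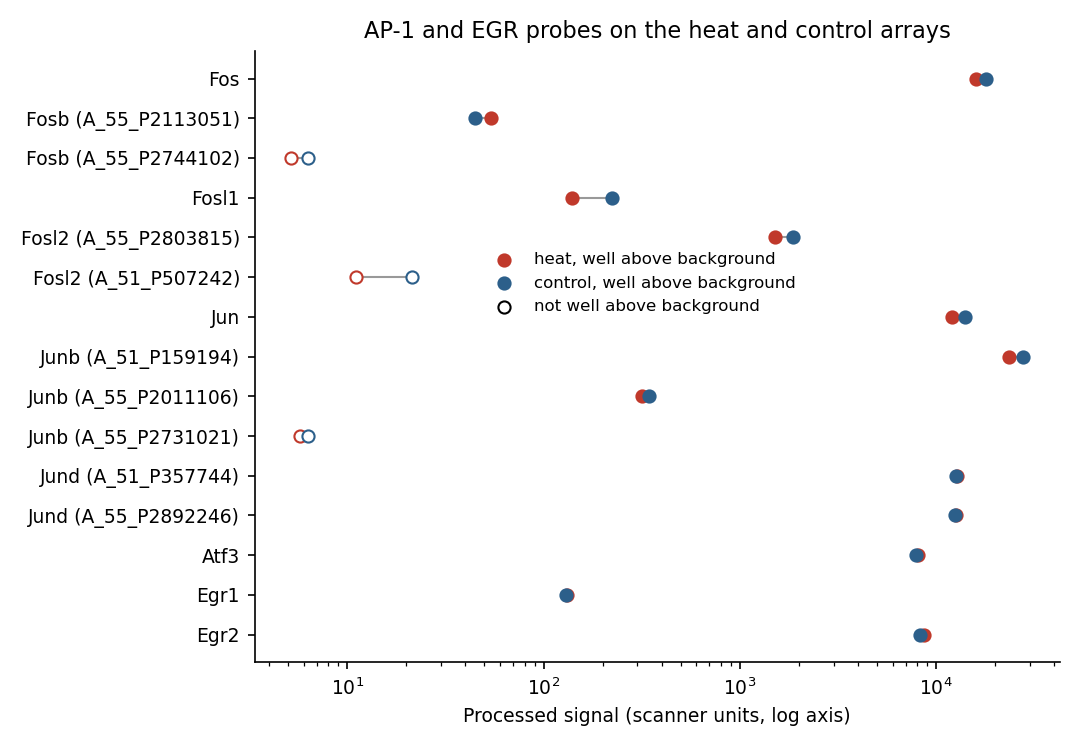
Processed signal of each of the 15 member probes (horizontal log axis, scanner units) on the heat array (red) and the control array (blue), with open circles for signals not well above background. 12 probes were well above background on both arrays and 3 on neither, and the widest gap among the 12 was that of Fosl1, at 140 against 224.

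Fos, the partner that gives AP-1 its classical form with Jun, had a signal of 16032 with heat against 18022 in control. The 2 arrays thus lay close together, with the control slightly higher, and the difference was -0.13. The scanner software's own errors for both signals combine to 0.20 on the log2 scale, which is wider than the difference. With mean minus background signals in place of processed signals, the Fos difference was -0.04. Its single probe lies at chromosome 12, 86818118 to 86818177 (mm9, the build that the file headers give for the probes).

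Fosl1 (Fra-1), a Fos protein without the strong activation domain of Fos, had 139.9 with heat against 224.2 in control. The heat array was the lower, and the difference of -0.64 was 2.98 times the scanner error of 0.22 in size. Of all measured genes, 1.37% had a difference at or below that of Fosl1. Fosl1 was also the only 1 of the 10 members outside the middle 95% of all genes, which ran from -0.50 to 0.45. That middle leaves out some genes by definition, so 1 of 10 members outside it cannot be told apart from the background. The Fosl1 signal is modest, at the dim end of the probes of 100 to 1000 units, whose middle 95% was -0.44 to 0.46. The Fosl1 difference of -0.64 lay outside that range. Probes under 100 units had -0.74 to 0.65, a range that holds -0.64, and those over 10000 units -0.31 to 0.21. Fosl1 kept its sign in all 12 alternative ways of processing that gave it a value, between -0.68 and -0.46. The probe lies at chromosome 19, 5455496 to 5455555.

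Fosl2 (Fra-2), the other short relative of Fos, had 1504 with heat against 1875 in control at its detected probe. This difference of -0.28 has the same sign as that of Fosl1 and was 1.37 times its scanner error of 0.20 in size. The other Fosl2 probe, whose start lies 4988 bases away on chromosome 5, read 11.1 and 21.3 and fell short of the background flag on both. With such dim probes kept, the mean over both Fosl2 probes was -0.59. Of all measured genes, 7.33% had a difference at or below that of Fosl2.

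Fosb, a Fos protein with its own activation domain, was read close to the detection limit. Its detected probe had 54.1 with heat against 44.9 in control, both near the lowest signals that carried the flag. The difference of 0.31, the highest of the members, was smaller than its scanner error of 0.34. With normexp background correction and quantile normalization it was 0.10, where normexp used an offset of 50 units. With the dim second probe (5.18 and 6.34, not well above background) averaged in it was 0.03. The level of Fosb was thus close to what these arrays can detect, and its order between the samples is not resolved.

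The probes that decide these Fos family values are shown by the middle 30 of their 60 bases, written 5′ to 3′ as the array files list them, because each value is a reading of 1 such stretch and 2 genes hold both a detected and an undetected probe.
Fosl1, detected: cataatttgcacaaaattagaggaaaatat
Fosl2, detected: acatattaaaaacttattttccctcgggtt
Fosl2, not detected: gaaggagaaggagaagctagagttcatgaa
Fosb, detected: tcattgactccatagccctcacccaggctg
Fosb, not detected: aactctttagacaaacaaaacaaacaaacc
The detected probe of Fosl2 was 35% G or C over its 60 bases and the undetected one 55%. For Fosb the shares were 45% and 40%, so the detected probe was the poorer in G and C in 1 gene and the richer in the other.

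Jun, the founding Jun protein and a target of the kinase JNK, had 12057 with heat against 14086 in control. The heat array was again the lower, with a difference of -0.19, inside the scanner error of 0.20. The Jun difference was -0.08 with mean minus background signals and -0.11 with normexp and quantile normalization. Its probe lies at chromosome 4, 94716928 to 94716987.

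Junb, a Jun protein that is a weaker activator than Jun at many sites, was read by 3 probes. At the first, it had 23504 with heat against 27731 in control, a difference of -0.20. At the second, whose start lies 1038 bases away, it had 316 and 344, a difference of -0.09. Both probes placed the heat array slightly below the control array, and both values were smaller than the scanner errors of 0.20 and 0.21. The remaining probe, designed on a retina cDNA record and lying 4208 bases from the first, read 5.72 and 6.31 and fell short of the background flag on both. The mean over the detected probes was -0.14. The middle 30 bases of the 3 probes are given since only the first 2 read the Junb transcript record itself.
Junb, first probe: tattttaagatgtgtttgtgtgtgtgtgtt
Junb, second probe: gttttgtcaaagccctggacgacctgcaca
Junb, not detected: ctaagccaaattcccagcttgaaatctgtg

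Jund, a Jun protein known for steady expression in resting cells, had the closest agreement between probes. Its first probe had 12768 with heat against 12682 in control, and its second, whose start lies 134 bases away, 12552 and 12475. Both differences were 0.05 after rounding, against a scanner error of 0.20 each. The Jund difference was 0.11 with mean minus background signals and 0.01 with no scaling. Read against the whole array, 74.1% of genes had a difference at least that large in either direction.

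Atf3, a stress-induced factor that can repress as well as pair with Jun, had 8090 with heat against 7852 in control. The difference of 0.08 was well inside the scanner error of 0.20. It was -0.01 with normexp background correction and scaling to the 75th percentile, so it has no settled sign. Its probe lies at chromosome 1, 192994547 to 192994606.

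Egr1, the factor whose transcript rises in most cells within the first hour of a stimulus, had 131 with heat against 130 in control. These modest signals differed by 0.06, against a scanner error of 0.22. The Egr1 difference was 0.13 with normexp and the 75th percentile and 0.20 with mean minus background signals. Egr2 (Krox-20), a factor of myelination that also takes part in macrophage development, had 8699 with heat against 8274 in control. Its difference was 0.11, against a scanner error of 0.20, and 47.4% of genes had a difference as large in either direction. With mean minus background signals it was 0.17. The Egr2 probe lies at chromosome 10, 67004758 to 67004817.

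**Figure D2:**
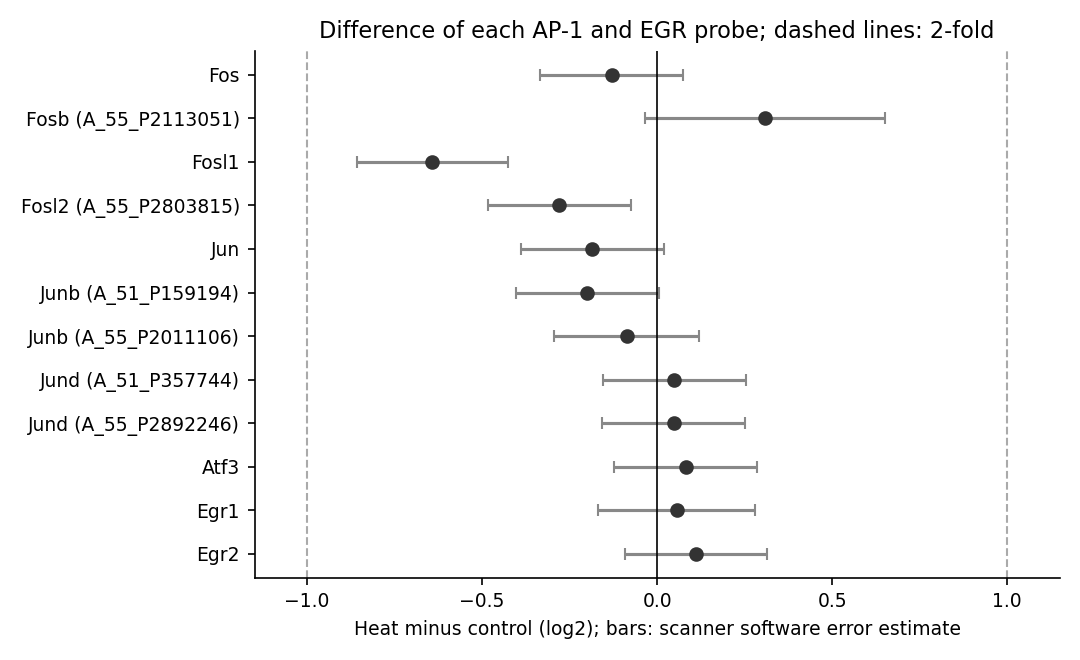
Difference in log2 signal (heat minus control, horizontal axis) of each of the 12 member probes well above background on both arrays, with bars for the scanner software's error estimate and dashed lines at 2-fold. The bar of Fosl1 at -0.64 and that of the Fosl2 probe at -0.28 stay clear of 0, and the bars of the other 10 probes reach 0.

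By family, 3 of the 4 Fos genes were lower and 1 higher, with a median of -0.21; 2 of the 3 Jun genes were lower and 1 higher, with a median of -0.14; and both Egr genes were higher, at 0.06 and 0.11. Over all genes, 8866 of 18562 were lower, which is 47.8%. Only 2 of the 12 detected member probes differed by more than their scanner error, and 1 of them, that of Fosl1, by more than 2 errors. This error is the software's own estimate for a spot, not a measured spread, and it leaves out the spread between animals or blood samples. It was the same 0.20 for every member probe that read over 10000 units. Spots of 1 probe printed 10 times, which none of the members were, had a median SD of 0.06 and a pooled SD of 0.09 for such a difference. Both come mostly from bright probes, since 264 of the 283 probes behind them read over 10000 units. The differences of Fos (-0.13), Jun (-0.19) and the first Junb probe (-0.20) were thus larger than these SDs, though inside their scanner errors. Those of the Jund probes (0.05) were smaller than both. These SDs do not cover animals or blood samples either.

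**Figure D3:**
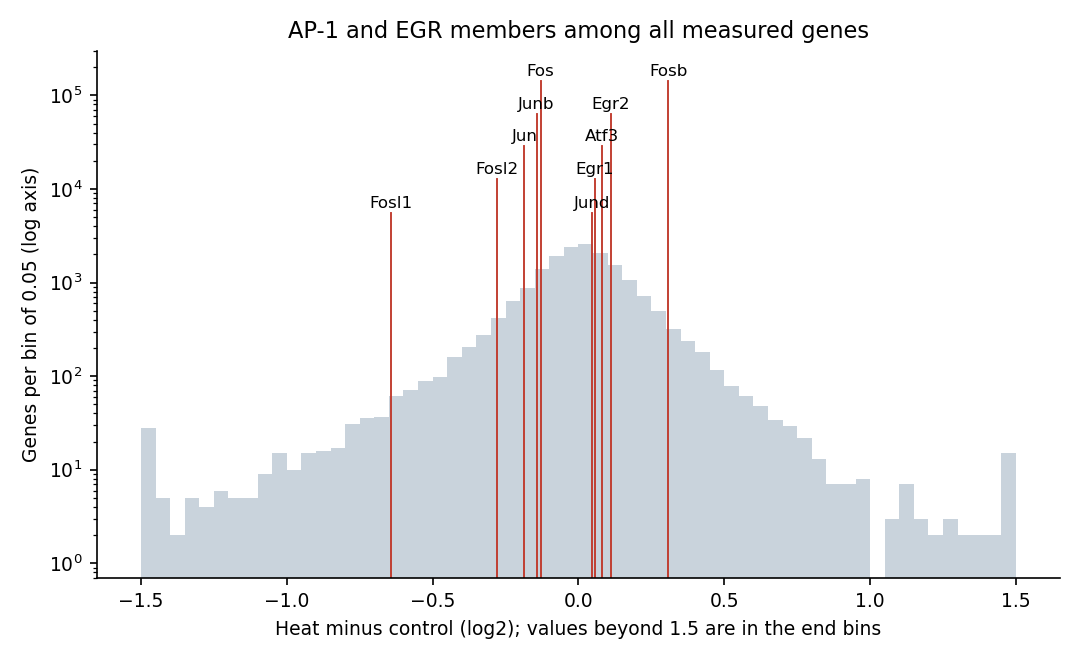
Number of genes (vertical log axis) in bins of 0.05 of the log2 difference, heat minus control (horizontal axis), for the 18562 genes measured, with a red line at each of the 10 members. The members other than Fosl1, at -0.64, lie between -0.28 and 0.31, in the body of the distribution.

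The sequence before the start of these genes was read from RefSeq promoter windows of 300 bases (250 before to 50 after the annotated start, GRCm38.p6), which held 8 of the 10 members in 12 windows, 5 of them for Egr2; Fosl1 and Egr1 had no entry. The arrays did not measure these windows, and a motif that was not found is only missing from these letters. The CArG box, the core of the serum response element that binds SRF, was found in 4 of the 5 Egr2 windows, where 3 overlapping windows share 1 site, and in no other member's window, beside 1.63% of all 32851 windows. The heat shock element, searched as GAANNTTC on both strands, was found for Jun and Fosl2 (7.86% of all windows), and the EGR site GCGNGGGCG for Fosb and Fosl2 (5.55%). The TATA box TATAAA was found for Fos and Junb (13.6%), in Junb within the first bases after the annotated start. The cAMP response element TGACGTCA and the AP-1 site TGANTCA were in none of the members' windows (1.79% and 7.81% of all). The letters TGACGTCA do not contain a match to TGANTCA.

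These stretches, with the match in capitals, are those of the CArG box of Egr2 in 2 windows, of the heat shock element of Jun and of Fosl2, and of the TATA box of Fos, given as the matches of most interest in a heat study of early genes. They lie at chr10:67537459-67537538 and chr10:67537762-67537841 on the plus strand for Egr2, at chr4:95052308-95052385 on the minus strand for Jun, and at chr5:32136222-32136270 and chr12:85473822-85473889 on the plus strand for Fosl2 and Fos.
Egr2, first: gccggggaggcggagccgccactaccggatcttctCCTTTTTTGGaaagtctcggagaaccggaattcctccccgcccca
Egr2, second: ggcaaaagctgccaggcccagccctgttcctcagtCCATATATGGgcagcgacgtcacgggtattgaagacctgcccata
Jun: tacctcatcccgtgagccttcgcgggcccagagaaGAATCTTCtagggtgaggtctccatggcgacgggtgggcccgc
Fosl2: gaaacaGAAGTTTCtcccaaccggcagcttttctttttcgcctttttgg
Fos: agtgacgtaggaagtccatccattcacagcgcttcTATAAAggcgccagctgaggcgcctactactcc
The members with the heat shock letters, Jun and Fosl2, had differences of -0.19 and -0.28, and Egr2 with the CArG box had 0.11. A match is a description of letters and says nothing of binding in these cells.

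The other genes of the pathway were taken from 7 lists, described by counts and medians. Of 19 other immediate early factors, 17 were measured, 5 of them higher and 12 lower, with a median of -0.14; Egr3 and Egr4, the remaining EGR genes, missed the background flag on both. The 2 genes of this list that were 2-fold apart were Id1 and Id3, inhibitors of basic helix-loop-helix factors. Id1 had 272 with heat against 574 in control, a difference of -1.04. Id3 had 648 and 1344, a difference of -1.01. Both lay at least 2-fold lower, as did 0.453% of all genes. The lists were chosen with earlier results of these data known, so these 2 genes cannot be weighed against that share. Id1 was at -0.80 and Id3 at -0.94 under the alternative that brought each closest to 0. Ier5, a growth-regulating early gene, had -0.38, and Myc, the cell growth regulator, had -0.31 and was lower at both of its probes.

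Of 14 transcription factors that act upstream of the members, all measured, 8 lay lower and 6 higher around a median of -0.06, with a range of -0.24 to 0.34. Srf, which binds the CArG box, had 1193 with heat against 1373 in control, a difference of -0.16 inside its scanner error of 0.20. Its partner Elk1 had a mean of 0.34 over 2 probes of very different signal. The brighter, at 240000 units with heat and 220800 in control, gave 0.16. The dimmer, at 266 and 190.5 units, gave 0.52. Mkl1, an SRF coactivator that senses actin, had 0.17, and Crem, of the CREB family, -0.24.

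Kinases of the ERK pathway, which phosphorylates Elk1, were 10 higher and 4 lower of 14 measured, with a median of 0.06. Rps6ka2, which encodes an RSK kinase, had the highest value of the list at 0.75; its probes gave 1.03 (493 with heat against 247 in control) and 0.48 (110 and 81.4). Its value was 1.03 with the brightest probe alone and 0.43 under the alternative closest to 0. Map2k1, which encodes the ERK kinase MEK1, had -0.20, Mapk7 (ERK5) 0.14 and Rps6ka5 (MSK1) 0.12. Kinases of the JNK and p38 pathways, which act on Jun and Atf2, were 9 higher and 4 lower of 13 measured, with a median of 0.06 and a range of -0.10 to 0.28. Mapkapk3, a kinase downstream of p38, had the highest value at 0.28, Map2k6 had 0.18 and turned to -0.56 with undetected probes kept, Map3k5 (ASK1) had -0.10 and Mapkapk2 0.09.

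Among other leucine zipper factors that can pair with AP-1 proteins, 10 were higher and 10 lower of 20 measured, with a median near 0. Jdp2, a repressor that pairs with Jun, had 5554 with heat against 8376 in control. That difference of -0.55 was larger than its scanner error of 0.20 and lay between -0.59 and -0.45 under the 13 alternatives. Cebpd, a C/EBP factor of acute inflammation, went the other way, with 14710 and 11210 and a difference of 0.43. Nfe2l2 (NRF2), the regulator of antioxidant genes, had 0.25 and Maf, a macrophage factor, 0.23, each higher at every one of its detected probes.

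Regulators of AP-1 and EGR proteins stayed within 0.16 of 0, with 3 higher and 6 lower of 9 measured and a median of -0.02. Nab2, the corepressor of EGR proteins, had the highest value at 0.16. Rfwd2 (COP1), a ubiquitin ligase for Jun, had -0.06, and Trib3, a pseudokinase partner of COP1, -0.05. Of 30 genes often named as AP-1 or EGR targets, 27 were measured, 12 higher and 15 lower, with a median of -0.04; Il1b, Il6 and Lif were not detected on either array. Ccnd1 (cyclin D1) had 17530 and 26870, a difference of -0.58, F3 (tissue factor) -0.51 and Cxcl2, a neutrophil chemokine, 0.69 at signals of 93.8 and 59.7. Under the alternatives closest to 0, F3 was at -0.26 and Cxcl2 at 0.36.

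**Figure D4:**
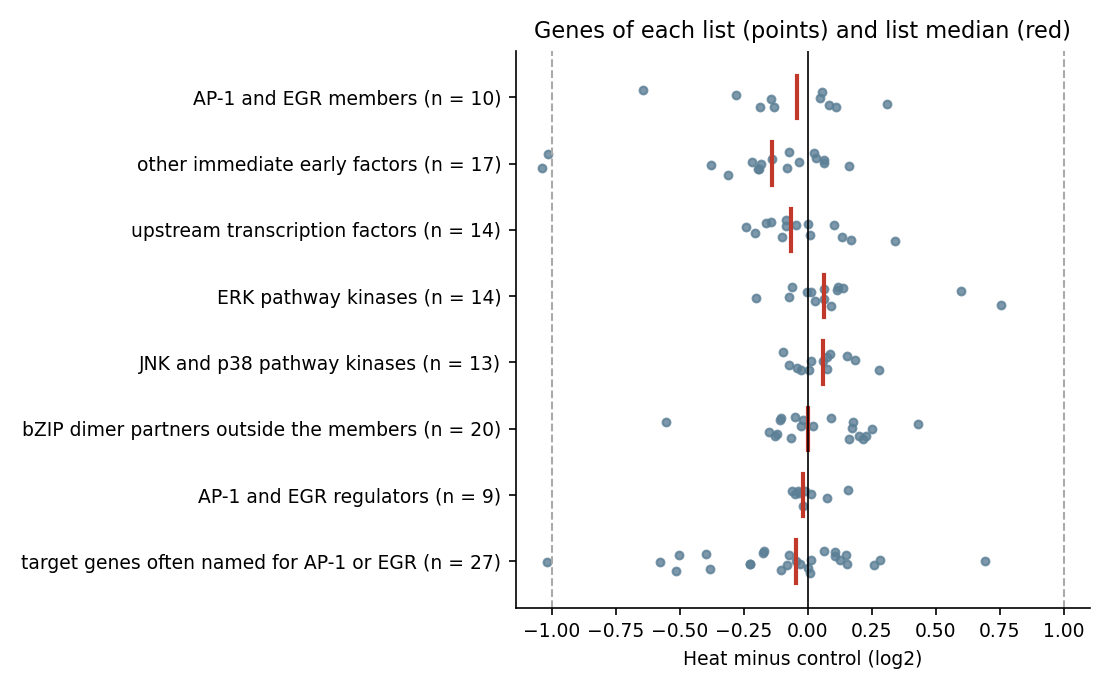
Log2 difference, heat minus control (horizontal axis), of every measured gene (points) of the members and of the 7 pathway lists, with the list median in red and dashed lines at 2-fold. The medians run from -0.14 for the other immediate early factors to 0.06 for the kinases, and Id1 and Id3 among the early factors lie past the 2-fold line.

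**Figure D5:**
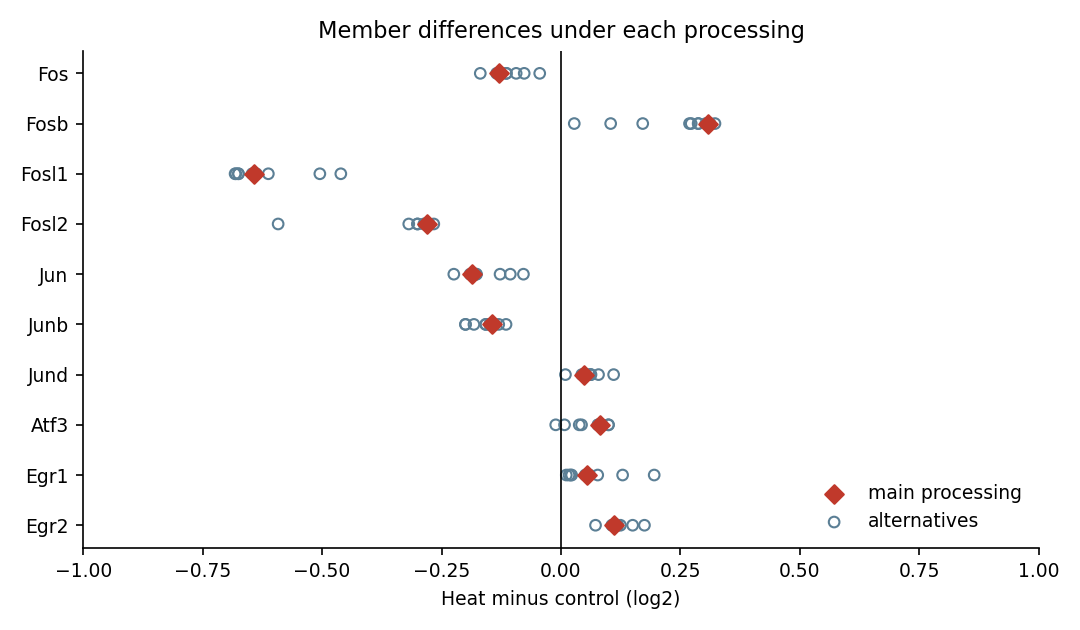
Log2 difference, heat minus control (horizontal axis), of each member under the main processing (red diamonds) and the alternatives (open circles). Atf3 is the only member whose sign turned, at -0.01 in 1 alternative; Fosb reaches from 0.03 to 0.32, Fosl2 from -0.59 to -0.27, Egr1 from 0.01 to 0.20, Jun from -0.22 to -0.08 and Fos from -0.17 to -0.04.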

How the data were processed

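RNA of 2 blood samples was read on 1-colour arrays. Per the file headers, the scans were quantified by Feature Extraction 10.7.1.1 (protocol GE1_107_Sep09), while the submitters' processing notes name version 9.1. The deposited files hold linear intensity values, the software's error estimates and its flags. The authors' deposited value table holds log2 levels per array, whose columns share a median of 5.26 and correlate at 1.0 with quantile-normalized scanner signals.

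Outlier spots (168 heat, 149 control) were dropped, none was saturated, and log2 signals were averaged per probe. The 75th percentile over 56605 probes was subtracted from each array. A probe was usable when over 0.5 of its remaining spots carried the background flag on each array (28755 probes), and usable probes were averaged by gene name. With 1 array a group no test was run; log2 differences of at least 1 (2-fold) were counted. A scanner error combines both relative signal errors. The members and lists were chosen with earlier results of these data known. Named genes are all members and, per list, up to 4 genes of largest absolute difference whose usable probes share a sign. Some genes that this rule names are not reported here. The gene summary was tested on simulated data.

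A first set of values had been seen before the percentile was moved from spots (864 and 890) to probes and before outlier spots were taken out of the flag. Both first choices are given as alternatives, beside other background corrections, scalings, filters, summaries and a 4-fold threshold. R 4.3.3, limma 3.58.1, Python 3.11.15, numpy 2.4.6 and pandas 2.3.3 were used. The planned protein motifs were not analysed here.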

Additional observations from a re-analysis of the deposited data

How the results depend on the processing

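A difference or median counted as moved when it changed by at least the median spot SD of 0.06, and a count of genes when it changed by more than 1.5 times. A pooled SD of 0.09 was also tried after values had been seen; it lowers the number of moved comparisons among the medians and 2-fold counts from 17 to 13, so the stricter one was kept. The median of the members (-0.04) was -0.13 with the brighter 50% of detected probes, where Fosl1, Fosb and Egr1 had no value. That of the other immediate early factors was -0.08 with the brighter 50%, with the brightest probe per gene and with normexp and the 75th percentile. That of the upstream factors was 0.03 with the brighter 50% and with the brightest probe, and that of the other leucine zipper factors was 0.10 with mean minus background signals. No member reached 2-fold in any alternative. The genes 2-fold higher and lower (39 and 84) numbered 12 and 24 with normexp and the 75th percentile, 11 and 27 with normexp and quantile normalization, 3 and 14 with the brighter 50%, 727 and 1008 with no filter on dim probes, and 5 and 6 at 4-fold. Dropping or adding probes changes how many genes are counted (10837 and 37068 for the brighter 50% and no filter). Normexp was run with an offset of 50 units added to the signals. The effect of this offset on the counts and on dim probes was not tested separately. The 2 alternatives chosen after seeing the data, the percentile over spots and outlier spots kept in the flag, left both counts at 39 and 84 and every member's sign as it was. With the percentile over spots, 11 in place of 10 ERK pathway kinases were higher. No paired analysis was possible because each group held 1 array, and leaving out a replicate was not possible for the same reason. Signal over background limits Fosb most.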

Other observations

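Because Id1 and Id3 stood out among the early genes, related genes were looked up after those values had been seen, and no test bears on the choice. The Id genes and the inhibitory SMAD genes are textbook targets of bone morphogenetic protein signalling. Id2 was lower on the heat array at both of its probes, with 3855 against 4718 (-0.25) and 469 against 644 (-0.42). Smad6 had 112 with heat against 194 in control, a difference of -0.76. Smad7 had 65.2 and 110 at its detected probe, a difference of -0.72. All of the detected probes of these genes thus lay lower on the heat array, while Id4 was not detected on either array. Over all genes 47.8% were lower, a share that genes picked in this way cannot be weighed against. The Smad7 difference lay inside the range given above for probes under 100 units, -0.74 to 0.65. That of Smad6 lay outside the range for probes of 100 to 1000 units, -0.44 to 0.46, though its signals are at their dim end. A change in bone morphogenetic protein signalling was not tested. Upstream genes were looked up with the Id and inhibitory SMAD genes. Smad1 had 0.01 at its detected probe, Smad5 had -0.02 and -0.52, and Bmpr2 had -0.09, -0.40 and -0.26. Bmpr1a was detected by 1 of its 2 probes, with heat only.

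Junos, the RNA from the strand opposite Jun, was also looked up after values had been seen. Its probes did not point one way. It had 89.2 with heat against 119 in control at one probe (-0.37), 81.3 and 68.2 at another (0.29), and 35.1 and 7.90 at the remaining one, which only the heat array detected.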
